A study of Mus musculus with 6 samples.

Results

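The 37 genes described here carry or control the breakdown of glucose to lactate, or respond to low oxygen through the hypoxia-inducible factor HIF. They were chosen by gene symbol from the 32180 features that remained after 104 mitochondrial, ribosomal protein and Malat1 features were set apart and the 2 rows of Aldoa were summed. Of the 37, 23 were glycolysis genes (4 transporters, 16 enzymes and 3 regulators of flux) and 14 were hypoxia genes (4 of HIF and its control and 10 other HIF targets). The single-cell RNA sequencing libraries came from αβ T cells of kidneys of wild-type male C57BL/6J mice aged 7 to 8 weeks. Control kidneys were normal. Kidneys of the ischemia-reperfusion (IR) group came from mice in which both renal pedicles had been clamped for 30 min, and serum creatinine was measured at 24 h. From each condition CD45+ αβ T cell receptor-positive cells were sorted into CD4, CD8 and double-negative (DN, CD4- CD8-) T cells, with a single library for each of the 6 groups. The sources used here do not say how many mice entered a library or whether they were pooled.

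Glycolysis splits glucose into pyruvate in the cytosol and yields ATP without oxygen. Pyruvate is then reduced to lactate, which leaves the cell through monocarboxylate transporters, or enters the mitochondria through pyruvate dehydrogenase. When oxygen is present, prolyl hydroxylases (the Egln genes) mark HIF-1α for the VHL ubiquitin ligase. When oxygen is scarce HIF-1α persists, pairs with ARNT and binds DNA at sites whose core is ACGTG or GCGTG, in many glycolysis genes among others. T cells also raise glycolysis after activation through the antigen receptor, independently of oxygen, and resting naive T cells use little of it.

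Values by subset are listed below in the order CD4, CD8, DN. The 47939 T cells divided into 9254, 9305 and 8898 from control kidneys and 10108, 6332 and 4042 from IR kidneys. Counts of unique molecular identifiers (UMIs) were summed over the T cells of a library and given as CPM, counts scaled so that all libraries have the same total. Pooled depth was 45553526 to 60769969 UMIs in control libraries and 4386054 to 15474171 in IR libraries, and the median cell held 6626 to 8364.5 UMIs against 1450.5 to 2355.5. Cd4 reached 210.4 and 146 CPM in the CD4 libraries and at most 0.466 CPM elsewhere, and Cd8a with Cd8b1 reached 2238 and 1495 CPM in the CD8 libraries and at most 6.27 CPM elsewhere, each where its label placed it. In the file headers the control counts carry Cell Ranger version 5.0.1 and the IR counts 6.0.1, while the labels give 6.0.1 throughout. If the headers hold, condition and software version cannot be told apart. Within a condition, 0.376% to 0.686% of a library's cells shared a barcode sequence with another library.

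With 1 library per group there is no replicate check, no test was made and no p-value is given. Intervals are exact 95% intervals that cover counting error only. A gene counts below as tested, meaning only that it entered a comparison, if the larger of the 2 levels was 10 CPM or more, and it was called if these levels were 2-fold apart or further, which is 1 on the log2 scale. Levels come from sums over cells, so fewer expressing cells and less RNA per cell cannot be told apart in them. The UMIs mark 3′ ends, and levels were not divided by transcript length. Whether intronic reads were counted is not stated, and the ratios ran along with intronic length, as described below.

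Every one of the 37 genes had at least 1 UMI in all 6 libraries, and together they took 0.352% to 0.450% of UMIs. At least 50 CPM was reached in 1 library or more by 25 genes, and 5 further genes (Hk2, Egln3, Vhl, Ankrd37 and Mxi1) peaked between 10 and 50 CPM. The remaining 7 stayed under 10 CPM throughout: Slc16a3, Pfkm, Aldoc, Pfkfb4, Vegfa, Bnip3 and Ndrg1.

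**Figure D1:**
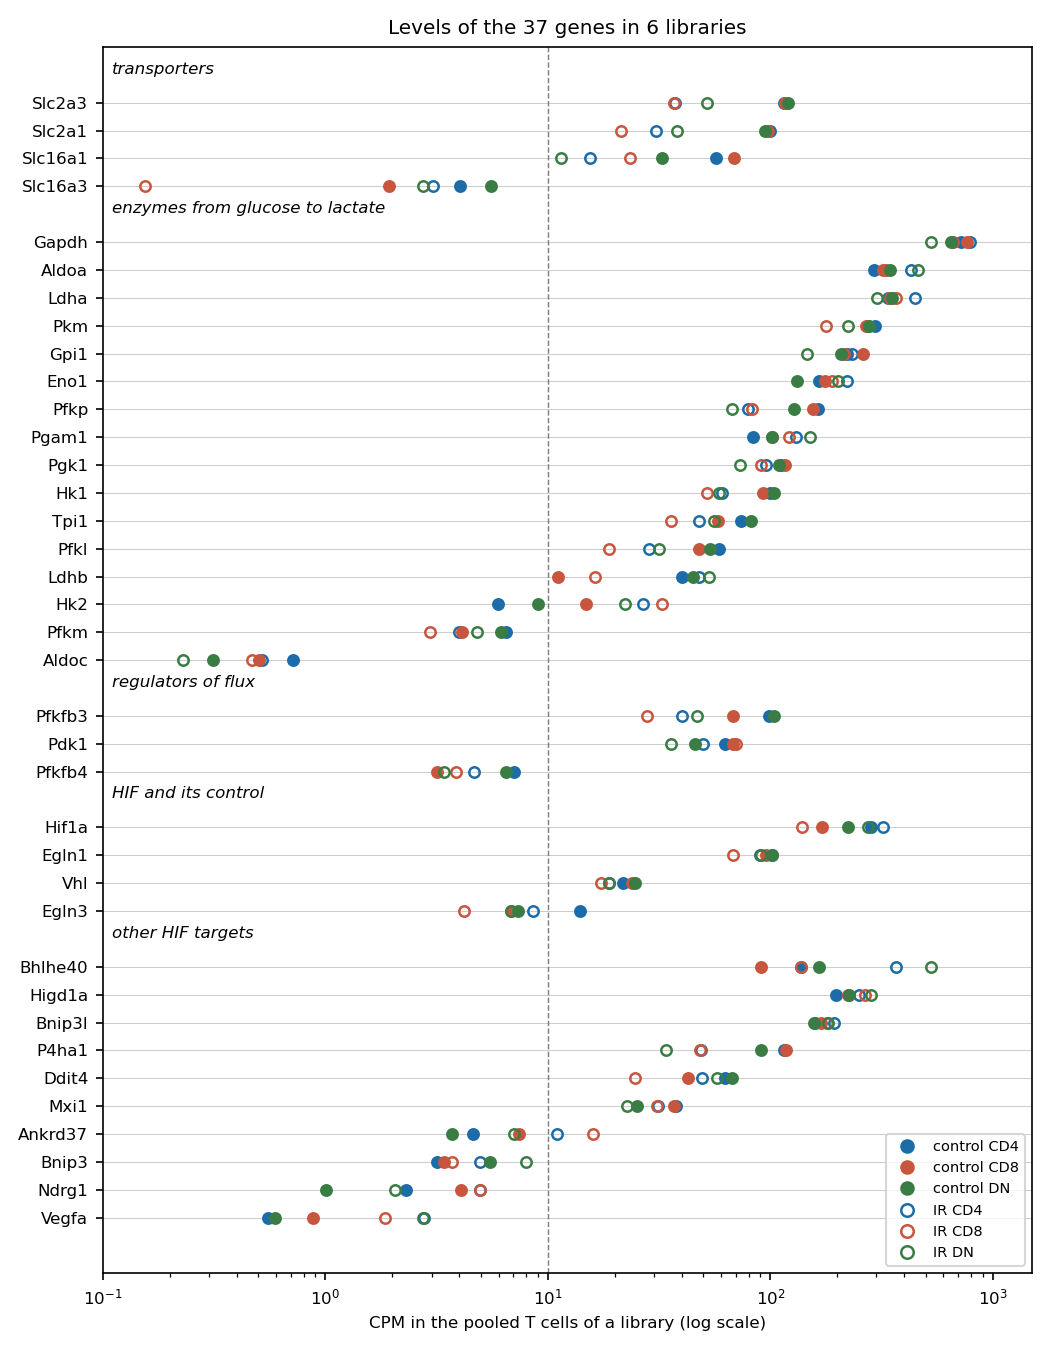
Level of each of the 37 genes in the 6 libraries, in CPM on a log axis, grouped by role. Filled points are control libraries, open points are IR libraries, colour marks the subset and the dashed line marks 10 CPM. Open points of Slc2a1, Slc2a3, Slc16a1, Pfkfb3 and P4ha1 lie left of the filled ones, and those of Hk2 lie right.

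In IR over control kidneys, 10 of the 37 genes were called in at least 1 subset. Hk2 was higher in all 3 subsets, and Bhlhe40 and Ankrd37 were higher in 2. Slc2a1, Slc2a3, Slc16a1, Pfkfb3 and P4ha1 were lower in all 3, Pfkl in 2 and Pfkp in 1. In CD4 cells 3 of 30 genes tested were higher and 7 lower, where 7.72% of all 9036 genes tested were higher and 15.1% lower. CD8 cells had 2 of 29 higher and 6 lower, beside 7.93% and 17.7% of 9110 genes. DN cells had 2 of 28 higher and 5 lower, beside 8.31% and 11.3% of 9201 genes. The counts of these genes called higher were near the background, and those called lower were near it in CD8 and somewhat above it in CD4 and DN. The median log2 ratio of the genes was -0.19, -0.29 and -0.31, and that of all genes tested was -0.26, -0.38 and -0.26. Taken apart, 6, 5 and 4 of 19 glycolysis genes tested were lower and 1, 1 and 1 higher, with medians of -0.22, -0.37 and -0.51. Of 11, 10 and 9 hypoxia genes tested, 1, 1 and 1 were lower and 2, 1 and 1 higher, with medians of -0.18, -0.27 and -0.14. The lower calls thus lay mainly among the glycolysis genes, 3 of them in each subset being transporters. The difference between the sets was not tested. The cells compared within a sort gate also fell into different clusters. Of 22 T cell clusters, 14 held at least 90% control cells and 6 at least 90% IR cells, and these took 98.2%, 99.6% and 98.7% of the control and 95.8%, 97.9% and 96.5% of the IR cells. The part of cell state, depth and processing in this separation, and of the separation in the ratios, was not tested.

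**Figure D2:**
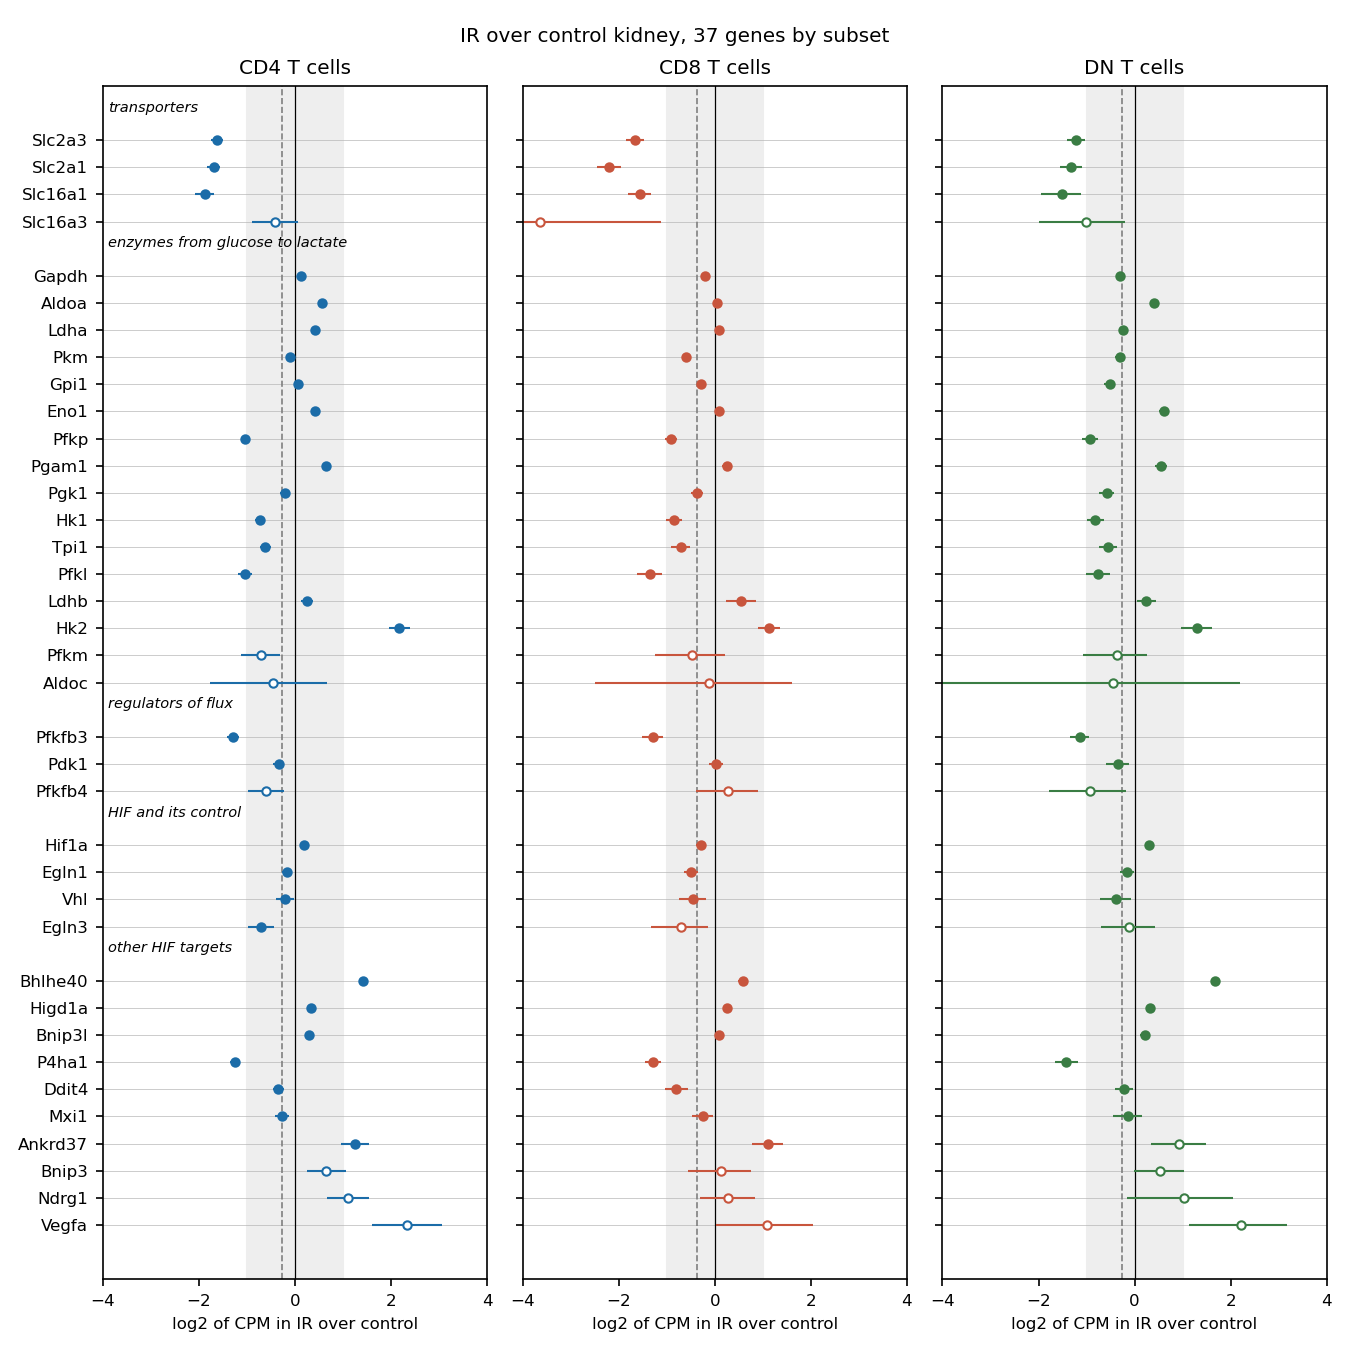
Log2 ratio of CPM in IR over control for each gene in CD4, CD8 and DN T cells, with exact 95% counting intervals. Open points are genes under 10 CPM in both libraries, the grey band spans less than 2-fold and the dashed line is the median of all genes tested. The intervals of Slc16a3 in CD8 and Aldoc in DN run past the axis. Slc2a1, Slc2a3 and Slc16a1 stand to the left of the band in every panel, and Hk2 stands to the right of the band in all 3.

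Of the 4 transporters, the 3 that were tested were lower in IR cells of every subset. Slc2a1 encodes GLUT1, the glucose carrier that T cells place on their surface on activation. Its control level was 99.2, 98.1 and 95.1 CPM and its IR level 30.8, 21.3 and 38.1 CPM. All 3 control libraries stood within a narrow range and all 3 IR libraries well below it, by 3.22-, 4.61- and 2.50-fold. The log2 ratios were -1.69 (-1.83 to -1.55), -2.21 (-2.46 to -1.96) and -1.32 (-1.55 to -1.10). Slc2a3, which encodes the high-affinity glucose carrier GLUT3, was at 115, 116 and 120.4 CPM in control and 37.1, 36.9 and 51.8 CPM in IR libraries. Its log2 ratios were -1.63, -1.65 and -1.22, and the 2 conditions did not overlap. Centred on the median of all genes, the DN ratio was inside the limit (-0.96). Slc2a1 made up 46.3%, 45.8% and 44.1% of the UMIs of both carriers in control cells and 45.3%, 36.5% and 42.4% in IR cells. The CD8 share alone moved beyond its counting interval (31.6% to 41.6%).

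Slc16a1 encodes MCT1, which passes lactate and pyruvate across the membrane. It stood at 57.0, 68.7 and 32.6 CPM in control cells and at 15.5, 23.3 and 11.4 CPM in IR cells. The log2 ratios were -1.88 (-2.07 to -1.69), -1.56 (-1.81 to -1.32) and -1.51 (-1.95 to -1.11), the last from 50 UMIs in IR DN cells. DN cells held the lowest level in both conditions and CD8 cells the highest. Slc16a3, which encodes MCT4, the lactate exporter of highly glycolytic cells and a HIF target, stayed at or under 5.55 CPM. Its count was 1 UMI in IR CD8 cells and 88 UMIs in control CD8 cells, a log2 ratio of -3.64 with a wide interval (-8.96 to -1.12).

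Hk2 was the gene called higher in every subset, although its CD8 call was lost with the removed features kept in the totals (log2 0.71) and with a mean over cells (0.99). It encodes hexokinase 2, the inducible hexokinase that traps glucose as glucose 6-phosphate, and is a HIF target as well as a gene of activated T cells. Its level was 5.95, 14.9 and 8.98 CPM in control and 26.8, 32.6 and 22.1 CPM in IR cells. Every IR library exceeded every control library, although none reached 50 CPM. The ratios were 4.50-fold (3.87 to 5.24), 2.19-fold (1.87 to 2.56) and 2.46-fold (1.96 to 3.06). Hk1, the hexokinase that most cells express steadily, was at 100.0, 92.9 and 104 CPM in control and 60.5, 51.7 and 59.1 CPM in IR cells, under the 2-fold limit. Hk2 therefore took 5.62%, 13.8% and 7.95% of hexokinase UMIs (Hk1 and Hk2 together) in control cells and 30.7%, 38.7% and 27.2% in IR cells. The lowest IR interval (22.7% to 32.2%, DN) lay above the highest control interval (12.9% to 14.8%, CD8).

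**Figure D3:**
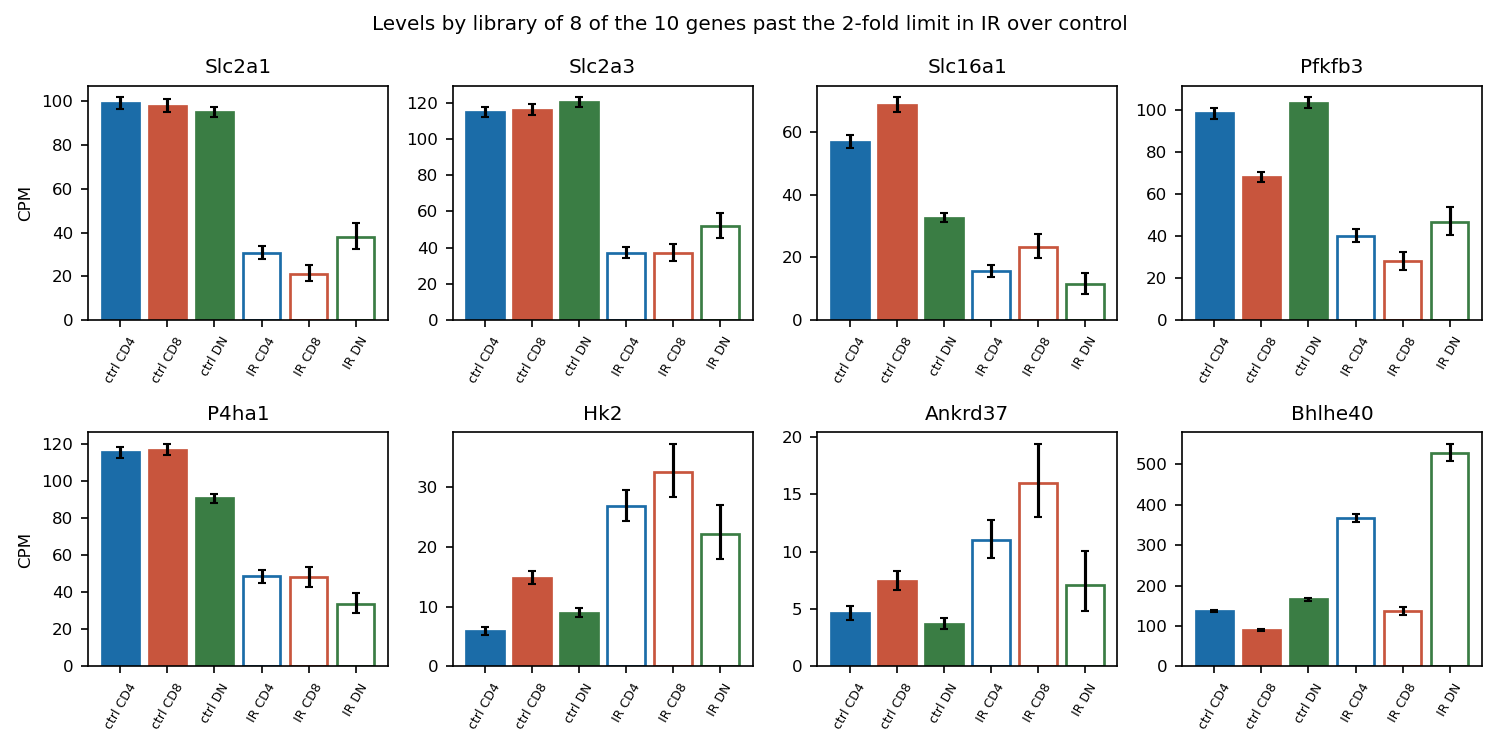
CPM by library of Slc2a1, Slc2a3, Slc16a1, Pfkfb3, P4ha1, Hk2, Ankrd37 and Bhlhe40, with exact 95% Poisson intervals as error bars. Filled bars are control and open bars IR libraries. The first 5 genes are lower in each IR library than in its control, and the last 3 are higher.

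Phosphofructokinase commits sugar to glycolysis, and its isoenzymes Pfkl and Pfkp were low in IR cells. Pfkl stood at 58.9, 48.0 and 53.8 CPM in control and 28.6, 18.8 and 31.7 CPM in IR cells, which passed the limit in CD4 (2.06-fold) and CD8 (2.56-fold) but not in DN (1.70-fold). The CD4 call was lost with either centring described below (log2 -0.78 on the median of all genes, -0.91 on intronic length) and with the top 5% of barcodes kept (-0.998), and the CD8 call with the first of these (-0.98). Pfkp stood at 164, 155 and 127 CPM in control and 79.7, 82.4 and 67.3 CPM in IR cells, and just passed the limit in CD4 (2.05-fold), with log2 ratios of -0.91 in CD8 and -0.92 in DN. Its CD4 call was lost with both centrings (-0.77 and -0.39). Pfkm peaked at 6.51 CPM. Pfkp held the largest share of the family's UMIs everywhere, 68.0% to 74.8% in control and 64.8% to 79.1% in IR cells, and the Pfkl share differed by condition beyond its counting intervals in CD8 alone, at 23.2% (22.3% to 24.0%) and 18.03% (15.2% to 21.2%). Pfkfb3 makes fructose 2,6-bisphosphate, the strongest activator of phosphofructokinase. It was at 98.4, 68.1 and 103 CPM in control and 40.2, 27.9 and 46.7 CPM in IR cells, or 2.45-, 2.44- and 2.21-fold lower. Centred on the median of all genes, its calls in CD8 and DN were lost (-0.91 and -0.88). Its relative Pfkfb4 was at 3.18 to 7.06 CPM in all libraries. Pdk1, the kinase that shuts pyruvate dehydrogenase and so keeps pyruvate in the cytosol, was at 62.8, 68.2 and 45.8 CPM in control and 49.6, 69.8 and 35.8 CPM in IR cells.

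Apart from Hk2, Pfkl and Pfkp, the enzymes tested stayed within 2-fold of control. Gapdh, which oxidises glyceraldehyde 3-phosphate and served as the reference gene of the study's PCR assays, was at 717, 762 and 649.8 CPM in control and 787, 662 and 526 CPM in IR cells. Its log2 ratios of 0.13, -0.20 and -0.30 went above control in CD4 and below it in CD8 and DN. Ldha, which reduces pyruvate to lactate, was at 336, 345 and 353 CPM in control and 448, 367 and 301 CPM in IR cells, with log2 ratios of 0.42, 0.09 and -0.23. Aldoa, the main aldolase of these cells, was at 292, 319.8 and 346 CPM in control and 428, 332 and 459 CPM in IR cells.

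Below aldolase the genes did not move as a block. Pgam1, phosphoglycerate mutase, was at 83.2, 101 and 102 CPM in control and 129.96, 121 and 150.02 CPM in IR cells. Eno1, enolase, went from 166, 177 and 132 CPM to 222, 188 and 201 CPM, and its near-identical copy Eno1b, whose reads may be mixed with it, held 2.77 to 5.11 CPM. Pgam1, Eno1 and Aldoa had log2 ratios above 0 in all 3 subsets, between 0.06 and 0.64. Tpi1, triosephosphate isomerase, was lower in each IR library, at 73.6, 58.4 and 81.8 CPM in control and 48.0, 35.7 and 55.9 CPM in IR cells. Pgk1, phosphoglycerate kinase, stood at 111, 117 and 109 CPM in control and 95.6, 90.3 and 73.0 CPM in IR cells, and Pkm, pyruvate kinase, at 296, 269.8 and 277 CPM and 275, 178 and 223 CPM. Gpi1, glucose phosphate isomerase, was at 222, 259.9 and 207 CPM in control and 233, 214 and 145 CPM in IR cells. Aldoc had 1 to 36 UMIs a library. Such small ratios depend on the scaling. With the removed features kept in the totals, Gpi1, Gapdh and Ldhb in CD4 and Aldoa, Pgam1, Eno1 and Ldha in CD8 changed sign. Centred on the median of all genes, Pgk1 and Pkm in CD4, Gpi1, Gapdh and Pgk1 in CD8 and Ldha in DN did. Summed over all 23 glycolysis genes, including the transporters, the level was 3116, 3160.3 and 3013 CPM in control and 3095, 2578 and 2563 CPM in IR cells.

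HIF itself differed little by condition. Hif1a, the oxygen-regulated subunit, which is controlled mostly at the protein level, was at 284, 171 and 222 CPM in control and 322, 139 and 274 CPM in IR cells. The sign of its ratio changed in CD4 with the removed features kept in the totals and in CD8 when centred on the median of all genes. Egln1, the main prolyl hydroxylase, was at 102, 96.1 and 101 CPM in control and 90.1, 68.1 and 91.2 CPM in IR cells. Egln3, a prolyl hydroxylase that is itself a HIF target, lay between 4.19 and 13.9 CPM, and Vhl between 17.4 and 24.7 CPM. None of these 4 genes was called for IR over control in any subset, although Egln3 was under 10 CPM and not tested in CD8 and DN.

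Among the other HIF targets, Bhlhe40 had the highest level in IR CD4 and DN cells, while in IR CD8 cells Higd1a and Bnip3l were above it. Bhlhe40 encodes a transcriptional repressor that T cells also induce on activation and that supports cytokine production. Control libraries held 137, 90.9 and 166 CPM and IR libraries 368, 137 and 529 CPM. The ratios were 2.69-fold (2.59 to 2.78) in CD4, 1.51-fold (1.40 to 1.62) in CD8 and 3.19-fold (3.05 to 3.34) in DN, so the gene was called in CD4 and DN. The CD4 call was just lost when centred on intronic length as described below (log2 0.99). After each cell was thinned to 1000 UMIs, 9.77%, 6.20% and 11.7% of control cells and 17.9%, 6.60% and 27.1% of IR cells had a Bhlhe40 UMI, beside 5.88% (3.33% to 9.52%) of 255 non-T barcodes. Both CD8 shares lay inside that last interval. Without thinning the shares were 35.7%, 25.0% and 49.9% in control and 29.9%, 10.5% and 35.9% in IR cells, beside 13.0% of non-T barcodes, and control cells were the deeper ones. No cell type here is known to lack the gene. Thinning left out 100, 565 and 30 shallower cells of the control libraries and 128, 184 and 395 of the IR libraries.

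P4ha1 went the other way from Bhlhe40. It encodes the catalytic subunit of collagen prolyl 4-hydroxylase and is a classical HIF target. Control cells held 116, 117 and 90.8 CPM and IR cells 48.7, 48.3 and 34.0 CPM, which was 2.37-, 2.43- and 2.67-fold lower with no overlap between conditions. Centred on the median of all genes, the calls in CD4 and CD8 were lost (-0.98 and -0.90). Ankrd37, a small ankyrin repeat gene induced by HIF in many cells, was at 4.63, 7.44 and 3.70 CPM in control and 11.0, 16.0 and 7.07 CPM in IR cells. It was called in CD4 (2.37-fold) and CD8 (2.15-fold), in both of which it fell inside the limit with the removed features kept in the totals (log2 0.89 and 0.68), as it did in CD4 after thinning (0.99), while in DN, at 1.91-fold, both libraries were under 10 CPM.

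The mitophagy and mitochondrial genes were closer to control. Bnip3l, a mitophagy receptor, was at 158, 169 and 157 CPM in control and 194, 179.9 and 182 CPM in IR cells, and Higd1a, a mitochondrial protein of the hypoxia response, at 198, 223 and 227 CPM and 251, 266 and 283 CPM. Both had log2 ratios above 0 in all subsets, from 0.09 to 0.34, but below 0 in CD4 and CD8 with the removed features kept in the totals. Ddit4, which restrains mTORC1 and is induced by HIF, glucocorticoids and other stresses, was at 62.8, 42.8 and 66.9 CPM in control and 49.4, 24.5 and 57.5 CPM in IR cells. Mxi1, a MYC antagonist, lay between 22.8 and 37.7 CPM. Vegfa, the angiogenic factor often used as a readout of HIF, held 0.554, 0.878 and 0.592 CPM in control and 2.78, 1.86 and 2.74 CPM in IR cells. Its ratios of 5.02-fold (3.05 to 8.39), 2.12-fold (1.01 to 4.12) and 4.62-fold (2.19 to 9.08) rest on levels below the 10 CPM limit. Bnip3 lay between 3.17 and 7.98 CPM and Ndrg1 between 1.004 and 4.98 CPM.

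Intronic length ran along with the IR over control ratio across all genes. Genes tested were divided into 10 groups of equal size by the total length of their introns (GENCODE M21, GRCm38). In the group with the shortest introns the median log2 ratio was 0.45, 0.16 and 0.31, and in the group with the longest introns it was -0.99, -0.86 and -0.69. Members with 20 kb of intron or more had a median of -0.71, -0.67 and -0.66 (13, 12 and 12 genes), where all such genes had -0.60, -0.60 and -0.49. Members under 20 kb had a median of 0.25, 0.06 and -0.23 (17, 17 and 16 genes), where all such genes had 0.12, -0.13 and 0.0033. The glycolysis genes of 20 kb or more had medians of -0.88, -0.88 and -0.87, and the hypoxia genes of that length -0.27, -0.39 and -0.15. The study's methods give default settings for the preprocessing, which in these versions of Cell Ranger leave intronic reads out, but do not mention introns, and the part of library type, software and depth in this trend was not tested.

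**Figure D4:**
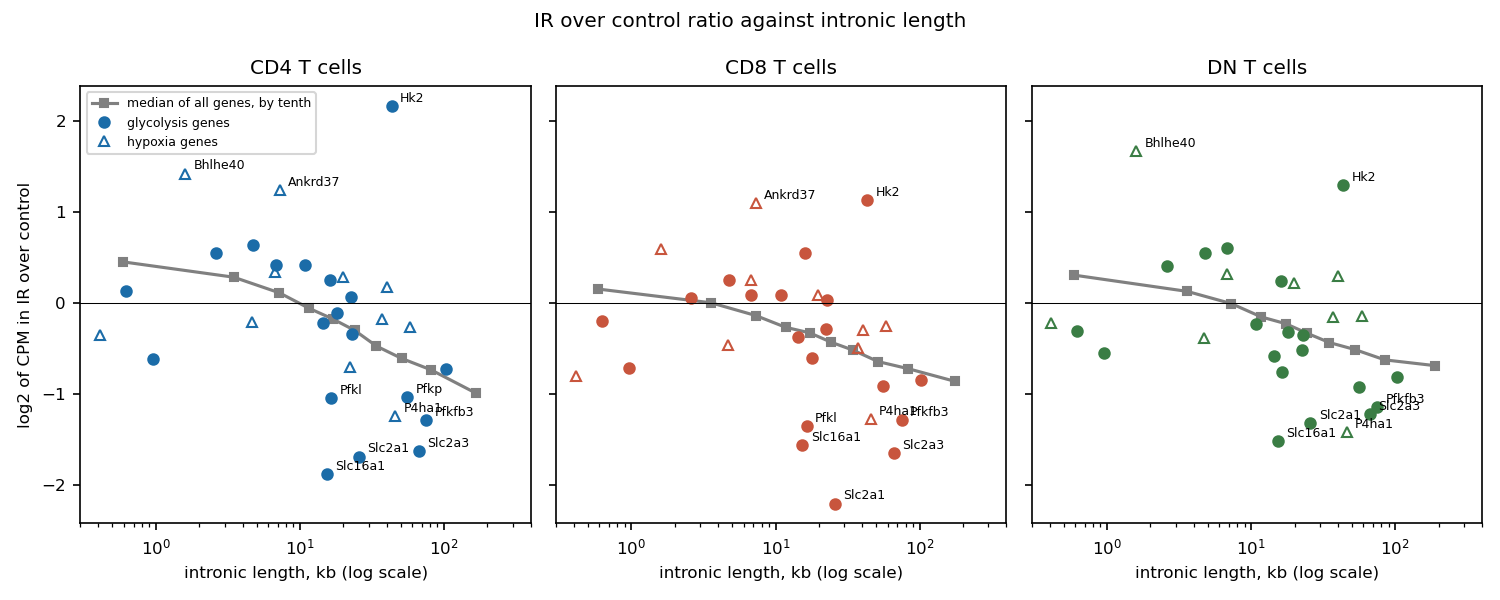
Log2 ratio of CPM in IR over control against intronic length in kb (log axis) for the genes at 10 CPM or more. Filled circles are glycolysis genes, open triangles hypoxia genes, and the grey line joins the medians of all genes in 10 groups by intronic length. Names are given for the called genes. Hk2 stands far above the line, Slc2a1 and Slc16a1 stand below it, and Pfkfb3, P4ha1 and Slc2a3 lie closer to it.

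When each ratio was taken relative to the median of genes of like intronic length (20 bins), Hk2 and Slc16a1 were called in all 3 subsets, and Slc2a1 in CD4 and CD8. Hk2, which has 43461 bases of intron, was at 2.74, 1.75 and 1.80 on the centred log2 scale. Slc16a1, with 15369 bases, was at -1.75, -1.25 and -1.32, and Slc2a1, with 25767 bases, at -1.35, -1.74 and -0.96. Slc2a3 (66587 bases), Pfkfb3 (75084 bases) and P4ha1 (45895 bases) moved inside the 2-fold limit in every subset, at -0.92, -0.96 and -0.63, at -0.58, -0.59 and -0.56, and at -0.68, -0.66 and -0.92. Bhlhe40 has only 1592 bases of intron and moved to 0.99, 0.45 and 1.39, and Ankrd37, with 7267 bases, to 1.14 and 1.25 in CD4 and CD8. Tpi1, with 958 bases, moved past the limit in CD4 at -1.05, and Pfkl, already past it in CD8, moved closer to it at -1.04. The centred calls were 2 higher and 3 lower in CD4 (8.36% and 5.09% of all genes), 2 and 3 in CD8 (10.6% and 5.79%) and 2 and 1 in DN (9.56% and 4.1%).

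Promoters of the genes called in all 3 subsets are printed to show where ACGTG lies before their start sites. They were chosen after the calls were known. Of the 37 genes 33 were matched in the table of RefSeq promoters used here (GRCm38.p6), in 49 windows of the 250 bases before a start site, and Slc2a3, Bhlhe40, Bnip3l and Ndrg1 were not analysed here. ACGTG on either strand was found in 24 of the 49 windows (49.0%) and in 16.6% of all 32851 windows of that length, GCGTG in 53.1% and 28.2%, and at least 1 of these in 79.6% and 38.6%. The 5 windows below are the 5′-most of each gene, written 5′ to 3′ on the gene's strand, and capitals mark ACGTG or its complement CACGT. In Slc16a1 both overlap as CACGTG, which is also the E-box of MYC and of Bhlhe40.
Hk2 (higher in IR, chr6:82774455-82774704, minus strand): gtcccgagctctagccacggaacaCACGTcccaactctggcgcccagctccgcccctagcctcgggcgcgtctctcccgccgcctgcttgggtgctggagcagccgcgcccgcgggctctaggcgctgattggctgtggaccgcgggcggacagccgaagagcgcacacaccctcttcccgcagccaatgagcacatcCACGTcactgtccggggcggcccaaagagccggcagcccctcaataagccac
Slc2a1 (lower in IR, chr4:119108495-119108744, plus strand): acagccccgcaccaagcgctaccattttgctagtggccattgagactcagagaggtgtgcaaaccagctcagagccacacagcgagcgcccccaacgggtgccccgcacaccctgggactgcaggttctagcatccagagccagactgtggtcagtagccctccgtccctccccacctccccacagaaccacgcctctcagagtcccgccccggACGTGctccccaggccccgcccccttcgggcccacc
Slc16a1 (lower in IR, chr3:104638414-104638663, plus strand): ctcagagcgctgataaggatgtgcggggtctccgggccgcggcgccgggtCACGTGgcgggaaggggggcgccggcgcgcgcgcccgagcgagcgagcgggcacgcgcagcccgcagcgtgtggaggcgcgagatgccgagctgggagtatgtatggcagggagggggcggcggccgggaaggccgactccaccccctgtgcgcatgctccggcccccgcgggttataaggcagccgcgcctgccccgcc
Pfkfb3 (lower in IR, chr2:11553930-11554179, minus strand): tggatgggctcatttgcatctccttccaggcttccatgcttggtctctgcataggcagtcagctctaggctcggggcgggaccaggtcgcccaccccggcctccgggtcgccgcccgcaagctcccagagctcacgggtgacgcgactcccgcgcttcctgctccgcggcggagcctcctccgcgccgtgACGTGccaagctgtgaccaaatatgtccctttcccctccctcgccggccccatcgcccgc
P4ha1 (lower in IR, chr10:59323046-59323295, plus strand): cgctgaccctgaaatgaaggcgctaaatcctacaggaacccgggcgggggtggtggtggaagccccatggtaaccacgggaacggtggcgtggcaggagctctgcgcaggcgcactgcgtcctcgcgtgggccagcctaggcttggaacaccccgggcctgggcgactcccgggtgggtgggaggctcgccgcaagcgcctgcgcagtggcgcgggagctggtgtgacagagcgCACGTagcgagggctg

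The 5 windows each held ACGTG, at 226 and 52 bases before the start site in Hk2, 36 in Slc2a1, 200 in Slc16a1, 60 in Pfkfb3 and 16 in P4ha1. ACGTG was thus present in the gene that was higher and in those that were lower in IR cells, while GCGTG was in the windows of Slc2a1, Slc16a1 and P4ha1 and in neither of the others. A match is a description of the sequence and not a bound site. The gene bodies, from GENCODE M21, lie at chr6:82725025-82774454 (Hk2), chr4:119108711-119137983 (Slc2a1), chr3:104638668-104658462 (Slc16a1), chr2:11471433-11554077 (Pfkfb3) and chr10:59323296-59373304 (P4ha1). Hk2, Slc2a1 and Pfkfb3 overlap annotated genes on the opposite strand, and Slc16a1 overlaps Gm43581 and Gm43585 on its own strand, so reads could be shared between them.

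Between DN and CD4 cells 0 of 28 genes were called in control kidneys, where 1.35% of all genes were higher and 1.4% lower in DN, and 0 of 29 in IR kidneys, where 4.84% were higher and 2.46% lower. Ldhb was called between CD8 and both other subsets in either condition. It encodes the lactate dehydrogenase subunit that favours the return of lactate to pyruvate. Its level was 39.9 and 44.8 CPM in control CD4 and DN and 11.1 CPM in control CD8, and in IR kidneys 47.6 and 53.1 CPM against 16.3 CPM. The log2 ratio of DN over CD8 was 2.02 (1.88 to 2.15) in control and 1.70 (1.37 to 2.05) in IR kidneys, and that of CD8 over CD4 was -1.85 (-1.99 to -1.71) and -1.55 (-1.85 to -1.25). Ldhb accordingly made up 10.6% and 11.3% of lactate dehydrogenase UMIs in control CD4 and DN and 3.11% in control CD8, and 9.59%, 15.003% and 4.25% in the same libraries of IR kidneys.

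**Figure D5:**
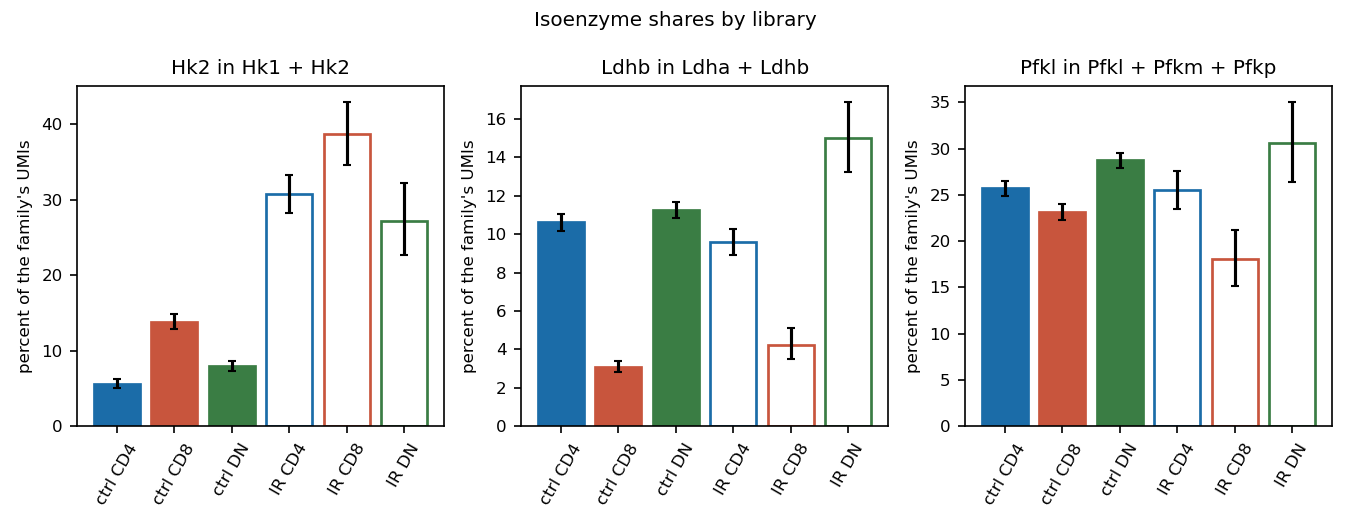
Percent of a family's UMIs held by Hk2 (of Hk1 and Hk2), Ldhb (of Ldha and Ldhb) and Pfkl (of Pfkl, Pfkm and Pfkp) in each library, with exact 95% binomial intervals. Filled bars are control and open bars IR libraries. The Hk2 share follows the condition and the Ldhb share follows the subset, with CD8 lowest in both conditions.

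In control kidneys, DN over CD8 called 1 of 28 genes tested higher, Ldhb, and 1 lower, Slc16a1, near the background of 3.55% and 3.03% of all genes. The Slc16a1 call (log2 -1.08) was lost with the removed features kept in the totals (-0.98). CD8 over CD4 called 1 of 29 higher, Hk2 (1.75% of all genes), and 2 lower, Ldhb and Egln3 (2.61%). Hk2 was 2.50-fold higher in CD8 than in CD4 (log2 1.32, 1.12 to 1.52), but inside the limit (0.86) after thinning. Egln3 was at 13.9 CPM in CD4 and 6.85 CPM in CD8, just past the limit at a log2 ratio of -1.02, and inside it after thinning or with a mean over cells (-0.83 for the smaller).

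In IR kidneys single hypoxia genes were also called between CD8 and the other subsets. CD8 over CD4 called 4 of 29 genes lower and 0 higher, beside 3.73% and 3.9% of all genes. These were Ldhb, Hif1a (log2 -1.21, -1.31 to -1.11), Bhlhe40 (-1.42, -1.52 to -1.32) and Ddit4 (-1.01, -1.27 to -0.76). The Ddit4 call was marginal and fell inside the limit in 6 of 11 alternatives, at -0.93 for the smallest. Of 29 genes, DN over CD8 called Ldhb, Bhlhe40 (1.95, 1.83 to 2.06) and Ddit4 (1.23, 0.94 to 1.52) higher and Slc16a1 and Ankrd37 lower, beside 7.74% and 4.21% of all genes. The Slc16a1 call (-1.03) was also marginal and fell inside the limit in 6 of 11 alternatives, at -0.69 for the smallest. That of Ankrd37 (-1.18) was lost with the removed features kept in the totals (-0.83). Hif1a in DN over CD8 was just inside the limit at 0.97 (0.85 to 1.10). In control kidneys CD8 cells also held the least Hif1a, Bhlhe40 and Ddit4 of the 3 subsets, with log2 ratios of CD8 over CD4 of -0.73, -0.59 and -0.56. These comparisons share their libraries and are not independent.

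Cells with at least 2 UMIs of 10 cycling genes were 1.62%, 3.64% and 1.01% of thinned control cells, and 0.621%, 0.504% and 0.0548% of IR cells. Without thinning the shares were 13.5%, 16.9% and 8.77% and 2.18%, 0.995% and 0.247%. Cycling is known to go with glycolysis in T cells. In control CD8 cells, where 318 cells were in the class, the 23 glycolysis genes summed to 3985 CPM in the class and 3103 CPM in the rest (log2 0.36, 0.27 to 0.45, and 0.13 without thinning). The same ratio was 0.34 (0.16 to 0.51) in control DN, 0.11 (-0.04 to 0.26) in control CD4 and 0.06 (-0.21 to 0.31) in IR CD4, the last 2 with intervals that held 0. The sums lean on Gapdh, which in control DN was at 1250 CPM in the class and 608 CPM in the rest. Over the 14 members with at least 20 UMIs in the control CD8 class, the median log2 ratio was 0.06, beside -0.03 for all genes. In control CD8, Gapdh was at 1274 and 740.5 CPM (log2 0.78, 0.61 to 0.95), Pkm at 429.99 and 270.3 CPM and Pgk1 at 172 and 103 CPM, whereas Aldoa and Eno1 had log2 ratios of -0.07 (-0.43 to 0.26) and -0.27 (-0.81 to 0.22). The 14 hypoxia genes summed to 856 and 991 CPM in the same cells. In thinned cells outside the class, the median log2 ratio of the genes in IR over control was -0.26, -0.23 and -0.23. That of all genes was -0.28, -0.39 and -0.27. Without thinning of the counts, each IR over control ratio that was called stayed past the limit with the class left out. The class holds few cells and misses cycling cells with fewer such UMIs. Beyond leaving it out, the part of cycling in these ratios was not tested.

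Other genes of these pathways were counted from lists chosen with earlier results of these data known. Of 28, 26 and 27 further carbohydrate genes tested, which hold glycogen, pentose phosphate and pyruvate dehydrogenase genes, 1, 0 and 0 were called higher (7.72%, 7.93% and 8.31% of all genes) and 1, 3 and 1 lower (15.1%, 17.7% and 11.3%). Their median log2 ratio was -0.37, -0.49 and -0.32, where that of all genes was -0.26, -0.38 and -0.26. Of 32, 31 and 32 further HIF pathway and hypoxia genes, 8, 5 and 5 were higher and 1, 5 and 0 lower, beside the same shares and medians of all genes, with a median of 0.14, 0.12 and 0.19. Those called in all 3 subsets at 50 CPM or more were Kdm6b, Zfp36 and Dusp1. Dusp1, a phosphatase of MAP kinases and an immediate early gene, was the most abundant, with 465, 296 and 586 CPM in control and 1782, 714 and 2970.3 CPM in IR cells. Zfp36, which speeds the decay of cytokine mRNAs and is likewise an early response gene, had log2 ratios of 1.94, 1.78 and 1.78, and Kdm6b, a histone demethylase, 1.78, 1.74 and 2.01.

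Markers of some other cells also differed by condition. The summed level of 8 myeloid genes was 107 to 110.2 CPM in control and 148 to 252 CPM in IR libraries, with 6 to 8 of the genes detected. Most of it was Cst3, at 92.7, 101 and 99.7 CPM in control and 146, 125 and 137 CPM in IR libraries. S100a8 and S100a9 were at 35.8 and 49.8 CPM in IR CD4 and at most 2.79 CPM in the other IR libraries. Adgre1 was at most 0.905 CPM in any library and absent from IR DN. The summed level of 5 erythroid genes was 1.87 to 2.06 CPM in control and 20.6 to 28.1 CPM in IR libraries, with all 5 detected. Among them Alas2 was lower in IR CD4 (0.831 and 0.582 CPM) and CD8 (0.702 and 0.310 CPM). For 4 B cell genes the sum was 1.91 to 11.8 CPM in control and 11.5 to 26.2 CPM in IR libraries, with at least 3 of the genes detected. These ranges overlapped, since control CD8 was above IR CD4. Ms4a1 was at 0.237, 0.373 and 0.461 CPM in control and 4.59, 14.3 and 17.1 CPM in IR libraries, while Cd79b was slightly lower in IR DN (0.757 and 0.684 CPM). The sums of 8 tubule genes, 1.88 to 2.94 CPM and 2.02 to 3.19 CPM with at least 2 of the genes detected, overlapped between conditions. So did those of 4 endothelial genes, at 129, 99.7 and 45.5 CPM and 102, 80.2 and 46.5 CPM, of which nearly all was Pecam1, a gene that T cells also express. Genes that vary among T cells moved too. The summed level of 4 genes of natural killer and cytotoxic cells was 62.5, 253 and 304 CPM in control and 142, 617 and 382 CPM in IR libraries, all 4 detected in each. These did not move together. Gzma was at 12.7, 187 and 75.7 CPM in control and 70.2, 580 and 141 CPM in IR libraries. Eomes was lower in IR CD8 (60.2 and 28.9 CPM) and DN (4.11 and 2.74 CPM). Ncr1 was lower in IR CD8 (0.395 and 0.310 CPM) and DN (15.3 and 6.84 CPM). Ccr7, a homing receptor of naive and central memory T cells, was at 32.9, 85.5 and 0.938 CPM in control and 247, 706 and 8.89 CPM in IR libraries. Lef1, a transcription factor of naive T cells, was at 464, 563 and 356 CPM in control and 444, 673 and 259 CPM in IR libraries. The part of these cells and genes in the results was not tested beyond 1 cluster. Without its 239 cells, whose leading genes were Cd74, Apoe and H2-Eb1, the counts of called members were the same in each of the 9 comparisons.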

How the data were processed

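The 6 10x Genomics 3′ single-cell libraries were analysed. The authors deposited raw UMI counts per gene and barcode, made with Cell Ranger against mm10. File headers name version 5.0.1 for control and 6.0.1 for IR libraries, the labels 6.0.1 for all. Of 54039 barcodes, those with at least 500 features and at most 20% mitochondrial UMIs were kept, and the top 5% by UMIs in each library were removed in place of a doublet caller (48277 left). Clusters (scanpy 1.11.5, Leiden) with a Cd3 UMI in under 50% of cells were removed (338 barcodes). Mitochondrial, ribosomal protein and Malat1 features (21.0% to 45.3% of UMIs) were left out of totals. Counts were summed per library and scaled to CPM. Ratios have conditional Clopper-Pearson intervals, CPM exact Poisson and shares exact binomial intervals, all for counting error only. A count of 0 was set to 3 counts in ratios. For split cells and shares each cell was thinned to 1000 UMIs. Intronic lengths came from GENCODE M21 (99.8% of features matched) and promoters from RefSeq. The 37 members and the other lists were chosen with earlier results of these data known. Values in every library are given for members that reach 50 CPM, and other pathway genes are named if called in all 3 subsets at 50 CPM or more. Alternatives covered scaling (edgeR 4.0.16 for TMM), filters, thinning and limits. A split of the cells by a second marker list is not reported here.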

Additional observations from a re-analysis of the deposited data

Results flagged for a closer look

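The 14 hypoxia genes summed to 1610.65 CPM (1490 to 1738, 663 UMIs) in the 303 non-T barcodes of the IR libraries, which entered no comparison above. The 35 non-T barcodes of the control libraries held 1070.1 CPM (889 to 1277, 123 UMIs), and T cells held 1311 CPM in IR and 1082 CPM in control kidneys. This was listed because the level in barcodes outside the T cell comparisons was above that in the control libraries. The barcodes were pooled over libraries and no test was made.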

How the results depend on the processing

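Of 264 counts of called members under 16 alternatives, 214 stayed within 1.5 times the value reported, and of 596 ratios of called genes 0 changed sign. That 0 was largely fixed in advance. Called ratios were at least 1 in size on the log2 scale, and the scalings shifted all ratios by less. Changes of the CPM or fold limit left a ratio as it was. IR over control: with a 1.5-fold limit 11 genes were lower in CD8 and 8 in DN. Centred on the median of all genes 4, 3 and 3 were lower, and within bins of intronic length 3, 3 and 1. With removed features kept in totals, 0 were higher and 11 lower in CD8, where Hk2 was at 0.71, and the median of all genes shifted by -0.38, -0.45 and -0.19. Calls higher were then 10.8%, 9.12% and 25.7% of all calls (33.9%, 30.9% and 42.5% as reported), against 62.1%, 64.6% and 70.0% centred on intronic length. A 50 CPM minimum left 1, 0 and 1 higher, no minimum gave 5 in CD4 and 4 in DN, a mean over cells 1 in CD8, and no cell filters 4 in DN. TMM shifted CD8 ratios by 0.10. Between subsets, the 1.5-fold limit gave 1 higher (CD8 over CD4, IR), 4 lower (CD8 over CD4, control), 2 lower (DN over CD4, each condition), 4 higher and 2 lower (DN over CD8, control) and 8 higher (DN over CD8, IR). A 50 CPM minimum gave 0 higher and 0 lower (CD8 over CD4, control), 2 lower (CD8 over CD4, IR), 0 higher (DN over CD8, control) and 0 lower (DN over CD8, IR). No minimum gave 4 lower (CD8 over CD4, control), 2 lower (DN over CD4, each condition), 3 and 3 (DN over CD8, control) and 5 and 4 (DN over CD8, IR). Removed features in totals gave 0 lower (DN over CD8, each condition) and 7 higher (IR). Thinning gave 0 higher and 1 lower (CD8 over CD4, control). A mean over cells gave 1 lower (CD8 over CD4 and DN over CD4, control). For DN over CD8 in IR, 1 was lower after thinning, without cycling cells, without cell filters, with non-T clusters or with the top 5% of barcodes. For DN over CD4 in IR, 2 were higher without cell filters and 1 with the top 5%. Without thinning, the log2 ratio of the glycolysis sum, class over rest, was 0.13 for cycling cells of control CD8 (0.36 thinned). The cause was not tested. No paired analysis was possible because the groups compared share fewer than 2 replicate numbers. A fit of condition plus subset, which would take the subsets as replicates, was not made. Depth was lowest in IR DN cells, where 3 counts are 0.684 CPM.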
